A study of Mus musculus with 2 samples.

Results

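The nuclear lamina and the inner nuclear membrane of blood stem cells are described here through 10 genes, chosen by name: the lamin genes Lmna, Lmnb1 and Lmnb2, the lamin B receptor gene Lbr, the LINC complex genes Sun1 and Sun2, the LEM-domain protein genes Emd, Tmpo and Lemd3, and Banf1, whose protein joins LEM-domain proteins to DNA. All 10 were found among the 37820 genes of a gene table and the 28013 genes of a transcript table summed per gene, and all were at 1 FPKM or more in every column. The study compared genome organisation and gene expression between adult and fetal haematopoietic stem cells (HSCs), the cells that renew all blood lineages. The adult group is bone marrow HSCs of the strain B6129SF1 at an age of 6 to 8 weeks (2 samples, replicates 1 and 2); the fetal group is liver HSCs of embryonic day 14.5 (E14.5), per the labels' protocol. No label of a fetal sample was used here, so the FL columns were read as fetal liver HSCs from their header and the protocol. Neither the fetal strain, the sort markers nor the number of animals per library is given in the sources used here. Each table gives FPKM (fragments scaled by feature length and by the library's mapped total) under 2 headers, BM for bone marrow and FL for fetal liver, read as the authors' means. The resulting 4 columns are called transcript-BM, transcript-FL, gene-BM and gene-FL below. Replicate values were not given, so no difference was compared with library-to-library spread and no test was made: "higher" and "lower" say only how these columns differ. The depth behind each value is unknown.

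The lamina is a meshwork of intermediate filaments under the inner nuclear membrane that carries nuclear shape and anchors silent chromatin at the nuclear edge. B-type lamins stay farnesylated and membrane-bound, whereas A-type lamins, lamin A and lamin C, are splice forms of Lmna that stiffen the nucleus and are typically scarce in immature and blood cells relative to solid tissues. Lbr and the A-type lamins are known as alternative tethers of peripheral heterochromatin, and LBR mutations in people cause granulocytes with under-lobed nuclei (Pelger-Huët anomaly). SUN proteins reach through the envelope to nesprins and so couple the lamina to the cytoskeleton.

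The transcripts on which the results turn differ in short stretches of coding sequence, taken from the GENCODE M21 transcripts (build GRCm38) by transcript identifier. Lmna (ENSMUSG00000028063) lies on chromosome 3, and its lamin C transcript Lmna-203 (574 codons) shares its first 1705 coding bases with the lamin A transcript Lmna-201 (665 codons). The first pair of lines shows the last 30 shared bases in lower case and, in capitals, the 20 bases that follow in each transcript, which in lamin C end with the stop codon. The third line shows the end of lamin A, with its final 4 codons in capitals. They encode the CaaX box that is farnesylated before prelamin A is cleaved, and that lamin C lacks.
Lmna-203: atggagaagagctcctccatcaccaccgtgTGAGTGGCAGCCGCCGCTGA
Lmna-201: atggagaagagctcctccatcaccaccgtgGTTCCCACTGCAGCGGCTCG
Lmna-201, end: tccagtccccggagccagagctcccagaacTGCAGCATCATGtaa

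A further coding transcript, Lmna-202 (462 codons), begins at a start of its own, given in capitals, and from there shares all of its remaining 1368 coding bases with lamin C. Its length is that of lamin C2, known as a germ cell form.
Lmna-202: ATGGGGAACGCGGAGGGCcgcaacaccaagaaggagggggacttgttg

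Sun2 (ENSMUSG00000042524), on chromosome 15, has the transcripts Sun2-201 (731 codons) and Sun2-203 (729 codons), which differ by 6 coding bases (2 codons), in capitals.
Sun2-201: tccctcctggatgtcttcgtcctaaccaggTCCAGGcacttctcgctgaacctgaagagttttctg
Sun2-203: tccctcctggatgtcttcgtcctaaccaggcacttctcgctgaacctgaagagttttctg

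Tmpo (ENSMUSG00000019961), on chromosome 10, encodes the LAP2 proteins. Tmpo-201 (693 codons) is the length of LAP2 alpha, the nucleoplasmic form, and Tmpo-202 (452 codons) that of LAP2 beta, a membrane form. They share their first 562 coding bases; the capitals mark the 30 bases after that point.
Tmpo-201: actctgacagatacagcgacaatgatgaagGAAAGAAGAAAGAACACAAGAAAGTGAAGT
Tmpo-202: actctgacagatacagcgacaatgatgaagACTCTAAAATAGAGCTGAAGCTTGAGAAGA

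The headers of the 2 tables did not match, for these genes or for the tables as a whole. Over 11077 genes, log2 differences between gene-BM and transcript-FL had a median absolute deviation of 0.02, against 0.45 to 0.60 for the other 3 pairings of columns. All 10 genes had values within 10% of each other in gene-BM and transcript-FL, with log2 differences of 0.02 to 0.13. Only 1 of 10 lay within 10% between gene-BM and transcript-BM, where log2 differences ran from -0.63 to 1.81, and 3 of 10 between gene-FL and transcript-FL. Lmna, for example, stood at 30.9 FPKM in gene-BM, 30.2 FPKM in transcript-FL and 8.79 FPKM in transcript-BM. Since the summed transcripts came so close to the gene value for every member, little of their FPKM in that column can sit on transcripts that were not linked to them. The largest shortfall was that of Tmpo, whose gene value was 1.10 times its transcript sum. Ratios are taken within a table only. Since these like columns are the numerator of one table's ratio and the denominator of the other's, opposite directions in the 2 tables are partly built in. Which header is right was not settled by these genes. If it is gene-BM that is misheaded, that column does not describe adult HSCs. If the headers of the transcript table are exchanged, every direction given for it below turns, so that Lmna is higher and Sun2 lower in adult HSCs.

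**Figure D1:**
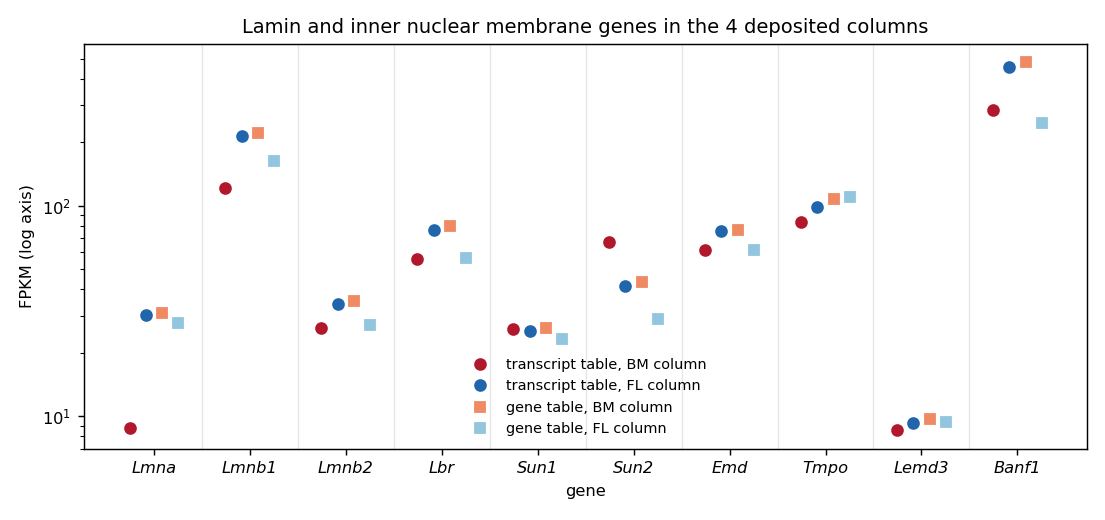
FPKM (log axis) of the 10 genes in the 4 deposited columns: circles for the transcript table (BM then FL) and squares for the gene table (BM then FL). For each gene the FL circle and the BM square lie side by side, and the BM circle of Lmna, at 8.79 FPKM, stands below its other 3 values, which lie between 27.6 and 30.9 FPKM.

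Lmna was the member with the largest difference within the transcript table, lower in BM. Its relative log2 ratio was -1.78, which is 3.42-fold lower in BM. This ratio is log2((BM + 0.1) / (FL + 0.1)), with FPKM in place of BM and FL, minus the median of all genes that reach 1 FPKM in both columns; 0 marks the typical gene. Of the 12221 genes at 1 FPKM or more in either column, called expressed, 4.21% had a lower ratio than Lmna. In rank, Lmna lay above 35.7% of the genes detected (1 FPKM or more) in BM and above 71.5% of those detected in FL. Fewer cells with Lmna RNA and less of it per cell cannot be told apart in bulk RNA.

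Other cell types' markers differed between the same columns. All 6 erythroid, 5 neutrophil and monocyte, 5 macrophage and 4 hepatocyte markers were at least 2-fold lower in BM. Their summed levels were 58.3, 34.4, 3.39 and 3.10 FPKM in BM against 543, 396, 161 and 18.0 FPKM in FL. No marker of these 4 lists was at 0 in either column. The neutrophil granule genes Mpo and S100a8 were at 9.27 and 13.6 FPKM in BM against 167 and 107 FPKM in FL, and the complement genes C1qb and C1qc at 1.48 and 0.679 FPKM in BM against 53.2 and 41.8 FPKM in FL. The part of these cells in the Lmna difference was not tested. The endothelial markers summed to 42.5 FPKM in BM and 57.3 FPKM in FL, with 2 of 6 at least 2-fold lower in BM: Cdh5 at 0.0183 FPKM in BM and 7.67 FPKM in FL, and Plvap at 0.634 and 7.21 FPKM. The stromal markers summed to 13.5 FPKM in BM and 10.8 FPKM in FL. Of the 3 expressed ones 2 were higher in BM, Col1a2 at 5.74 FPKM in BM and 1.67 FPKM in FL and Pdgfrb at 2.46 and 0.874 FPKM. Col3a1 and Pdgfra were at 0 in BM, against 0.105 FPKM each in FL. HSC markers went both ways: Ly6a, the Sca-1 gene, was at 36.0 FPKM in BM and 6.62 FPKM in FL, the stem cell factor receptor gene Kit at 181 and 112 FPKM, and Procr, the EPCR gene, at 37.5 and 50.4 FPKM. The 4 megakaryocyte markers summed to 733 FPKM in BM and 125 FPKM in FL. Of these, 2 were at least 2-fold higher in BM and 2 within 2-fold.

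The B-type lamin genes were also lower in BM of the transcript table, by less than 2-fold. Lmnb1 (ENSMUSG00000024590), on chromosome 18 and a B-type lamin gene, was at 121 FPKM in BM and 214 FPKM in FL, a relative log2 ratio of -0.82. Lmnb2 (ENSMUSG00000062075), on chromosome 10, was at 26.2 FPKM in BM and 34.0 FPKM in FL, a relative log2 ratio of -0.38. Lmnb1 thus exceeded Lmnb2 by 4.63-fold in BM and by 6.28-fold in FL.

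Set against each other within a column, where library scaling cancels, the lamin genes shifted in balance. Lmna made up 5.63% of the summed FPKM of the 3 lamin genes in BM and 10.9% in FL. The B-type sum was 16.8 times Lmna in BM and 8.20 times in FL. The same share in the gene table was 10.7% in BM and 12.7% in FL, with the B-type sum 8.33 and 6.89 times Lmna. Transcript-BM was thus the one of the 4 columns with the lowest A-type share.

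Lbr (ENSMUSG00000004880), on chromosome 1, encodes a receptor of B-type lamins and heterochromatin that is also a sterol reductase. It was at 55.9 FPKM in BM and 76.7 FPKM in FL of the transcript table, a relative log2 ratio of -0.46. Its FPKM was 6.36 times that of Lmna in BM and 2.54 times in FL. The value rests on 1 transcript, Lbr-201, the only one of 8 annotated for the gene that the table lists.

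Sun2 was the member with the highest ratio. It was at 67.0 FPKM in BM and 41.4 FPKM in FL of the transcript table, a relative log2 ratio of 0.69, and 79.2% of expressed genes had a lower one. Its close relative Sun1 (ENSMUSG00000036817), on chromosome 5, was at 26.0 FPKM in BM and 25.5 FPKM in FL, a relative log2 ratio of 0.02. Sun2 therefore stood at 2.58 times Sun1 in BM against 1.63 times in FL. In the gene table that quotient was 1.65 in BM and 1.24 in FL.

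The LEM-domain genes lay close to the typical gene in the transcript table. Emd (ENSMUSG00000001964), the emerin gene on chromosome X, was at 61.5 FPKM in BM and 76.1 FPKM in FL, a relative log2 ratio of -0.31. Tmpo was at 84.2 FPKM in BM and 98.6 FPKM in FL (-0.23). Lemd3 (ENSMUSG00000048661), on chromosome 10, encodes MAN1, which also binds SMAD proteins; it was the least abundant member in BM, at 8.54 FPKM against 9.23 FPKM in FL (-0.12). Banf1 (ENSMUSG00000024844), on chromosome 19, encodes the small DNA-binding partner of this family that helps rebuild the envelope after mitosis. It was the most abundant member, at 287 FPKM in BM and 457 FPKM in FL, a relative log2 ratio of -0.68; 16.0% of expressed genes had a lower one.

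Over the 10 genes, 1 (Lmna) was at least 2-fold lower in BM of the transcript table and none was higher, while 8.82% of expressed genes were at least 2-fold lower and 13.3% higher. The 1 in 10 that was lower is close to that background. The members' median relative log2 ratio was -0.35, against 0.02 for all expressed genes, and 8 of the 10 lay below 0. Of all expressed genes, 50.3% had a lower ratio than Sun1, which stood at 0.02. The quartiles of all expressed genes were -0.44 and 0.54, and the members' median lay between them.

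**Figure D2:**
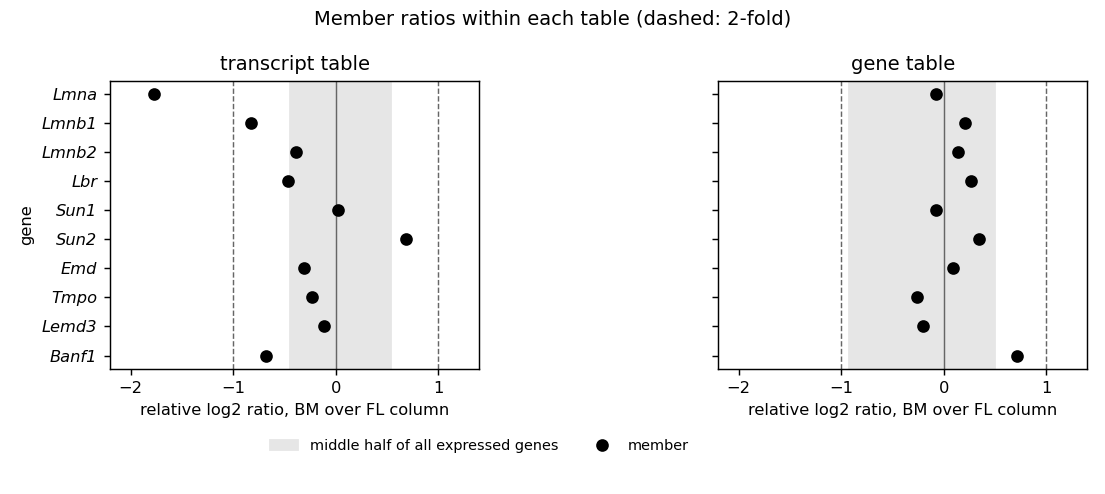
Relative log2 ratio of the BM over the FL column for each of the 10 genes (points), in the transcript table (left) and the gene table (right), with the range between the quartiles of all expressed genes shaded and 2-fold marked by dashed lines. In the transcript table Lmna lies at -1.78 and Sun2 at 0.69; in the gene table every member lies between -0.26 and 0.71.

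The transcript values placed most of the Lmna difference on the lamin C form. Lmna-203 was at 5.67 FPKM in BM and 25.2 FPKM in FL, 4.44-fold lower in BM, and this transcript carried 91.1% of the FPKM by which the gene differed. Lamin A, Lmna-201, was at 0.696 FPKM in BM and 2.13 FPKM in FL. Lamin C exceeded lamin A by 8.14-fold in BM, where lamin A lay below 1 FPKM, and by 11.8-fold in FL. The lamin C form thus led in both columns. Lamin A was also lower in BM, and its share of the gene was 7.92% in BM and 7.05% in FL. Lmna-202, with the start shown above, was at 1.77 FPKM in BM and 1.59 FPKM in FL. Its share of the gene was accordingly 20.2% in BM against 5.27% in FL, while that of lamin C was 64.5% in BM against 83.3% in FL. Lmna-203 has 350 coding bases that Lmna-202 lacks, while Lmna-202 has only its own start to mark it, and the split between them is an estimate shared out by a model.

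At Lmnb1, the coding transcript Lmnb1-201 was at 119 FPKM in BM and 200.3 FPKM in FL. A short transcript annotated with a retained intron, Lmnb1-202, was at 1.83 FPKM in BM and 13.4 FPKM in FL, 7.30-fold lower in BM. It carried 12.5% of the FPKM by which the gene differed between columns. On Lmnb1-201 alone the relative log2 ratio was -0.75.

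The higher Sun2 level in BM was spread unequally over its transcripts. Sun2-203, the form without the 6 bases in capitals above, was at 28.1 FPKM in BM and 13.5 FPKM in FL, 2.09-fold higher in BM. Sun2-201, the form with them, was at 30.6 FPKM in BM and 25.2 FPKM in FL, 1.22-fold higher. Another coding form, Sun2-202 (699 codons), was at 6.78 FPKM in BM and 2.16 FPKM in FL. Sun2-203 thus stood at 0.920 of Sun2-201 in BM and 0.535 in FL, and it carried 57.4% of the gene's difference. The leading form was Sun2-201 in both columns, with 45.7% of the gene in BM and 60.8% in FL. The forms differ by few bases (3768 in all for Sun2-203 and 3804 for Sun2-201), and the split is an estimate shared out by a model.

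Tmpo kept a like balance of forms. LAP2 beta (Tmpo-202) was at 46.9 FPKM in BM and 58.7 FPKM in FL, and LAP2 alpha (Tmpo-201), a partner of nucleoplasmic A-type lamins, at 18.8 FPKM in BM and 24.4 FPKM in FL. Their quotient was 2.50 in BM and 2.40 in FL. A shorter form, Tmpo-203 (412 codons), took 17.1% of the gene in BM and 11.1% in FL.

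Sun1 was led by Sun1-201 (913 codons), at 15.0 FPKM in BM and 13.5 FPKM in FL. Sun1-202 (849 codons) had 7.74% of the gene in BM against 16.3% in FL, and Sun1-211, a transcript with an incomplete coding sequence, 27.8% in BM against 21.9% in FL. Lemd3 was listed almost wholly as Lemd3-202 in BM, with 88.5% in FL, where Lemd3-201 was at 1.06 FPKM; its value in BM was under 0.001 FPKM. At Emd, a transcript annotated for nonsense-mediated decay, Emd-206, took 31.9% of the gene in BM and 34.1% in FL, beside the full-length Emd-201 (259 codons) with 51.9% in BM and 48.1% in FL. Lmnb2 and Banf1 rested on 1 transcript for 97.2% and 95.1% of their FPKM in BM and 99.1% and 96.7% in FL. The leading transcript was the same in both columns for all 10 genes.

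**Figure D3:**
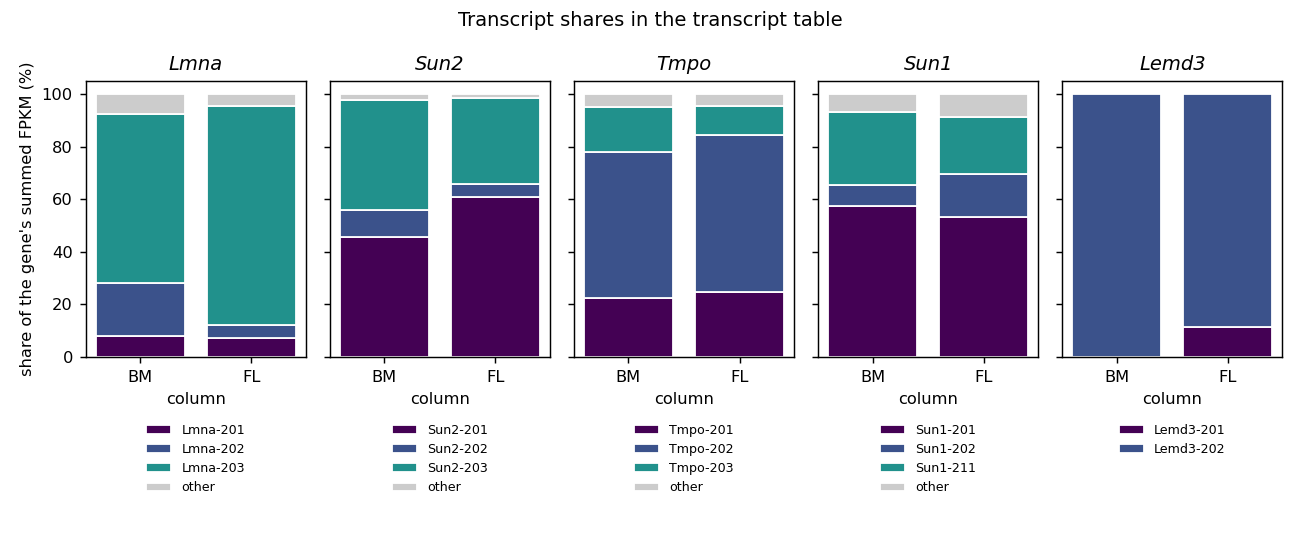
Share of each gene's summed FPKM (percent) held by its transcripts in the BM and FL columns of the transcript table, for 5 genes; grey is the sum of all other transcripts. Lmna-203 holds 64.5% in BM against 83.3% in FL, and Sun2-203 holds 42.0% in BM against 32.5% in FL.

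No member of the gene table was at least 2-fold apart, against 12.3% of 13834 expressed genes at least 2-fold higher in BM and 23.6% lower. The members' median relative log2 ratio was 0.11, with -0.07 over all expressed genes after a shift of 0.24 (log2) of the median gene was taken off. Lmna was at 30.9 FPKM in BM and 27.6 FPKM in FL, a relative log2 ratio of -0.08 whose sign turns without the shift, where it is 0.16. Lmnb1 was at 222 FPKM in BM and 163 FPKM in FL (0.21), and Lmnb2 at 35.3 and 27.2 FPKM (0.13).

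Among the membrane proteins of the gene table, Lbr was at 79.9 FPKM in BM and 56.4 FPKM in FL (0.26), and Sun2 at 43.2 and 28.8 FPKM (0.34). Sun1 was at 26.1 FPKM in BM and 23.3 FPKM in FL (-0.08, and 0.16 without the shift). Emd was at 77.1 FPKM in BM and 61.4 FPKM in FL (0.09), Tmpo at 108 and 110.0 FPKM (-0.26), and Lemd3 at 9.64 and 9.40 FPKM (-0.20, and 0.03 without the shift). Banf1 had the highest ratio, at 481 FPKM in BM against 248 FPKM in FL (0.71).

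These values stood beside large differences in other cells' markers. The 6 endothelial and 6 stromal markers were all at least 2-fold lower in BM of the gene table, with summed levels of 59.5 and 11.7 FPKM in BM against 2091 and 740 FPKM in FL. Plvap and Cdh5, both endothelial, were at 7.54 and 7.97 FPKM in BM against 599 and 457 FPKM in FL, and the stromal genes Sparc and Col1a1 at 8.08 and 0.799 FPKM in BM against 478 and 97.1 FPKM in FL. Erythroid and neutrophil and monocyte markers summed to 300.2 and 419 FPKM in BM against 28.2 and 22.7 FPKM in FL, and macrophage markers to 170.4 and 601 FPKM. Ctsg, the cathepsin G gene of neutrophil granules, was listed at 0 in FL. Hepatocyte markers summed to 18.8 FPKM in BM and 11.3 FPKM in FL, and megakaryocyte markers to 136 and 335 FPKM. These 2 lists were split. Of the 4 hepatocyte markers 2 were at least 2-fold higher in BM and 2 within 2-fold. Of the 4 megakaryocyte markers 2 were at least 2-fold higher and 2 lower in BM, with a median of -0.05. Among HSC markers, Kit was at 117 FPKM in BM and 35.5 FPKM in FL, Ly6a at 6.95 and 5.83 FPKM, and Procr at 54.0 and 120.6 FPKM. What these cells contributed to the 10 genes' levels was not tested.

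Genes whose 4 column values ran most like those of Lmna were Nt5dc2, Gem, a small GTP-binding protein gene, and Tmem51. Likeness was the Euclidean distance between log2(FPKM + 0.1) values, centred per gene, over the 4 columns and 13462 genes, and was 0.06, 0.10 and 0.05 for these. Nt5dc2 was at 33.4 FPKM in BM and 110 FPKM in FL of the transcript table. For Lmnb1 they were Rnf157, a ubiquitin ligase gene, Kdm5c, a histone demethylase gene, and Dlat, a pyruvate dehydrogenase subunit gene, at distances of 0.02, 0.03 and 0.03. Because 2 of the 4 columns hold like values, such likeness rests on few independent points.

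Around these members, 7 lists of other nuclear envelope genes held 71 genes, of which 68 were expressed in the transcript table. There 3 (4.41%) were at least 2-fold higher and 4 (5.88%) lower in BM, with a median of -0.09, so both shares were below the backgrounds of 13.3% and 8.82% given above. Of the 66 genes that could be compared between gene-BM and transcript-FL, 50 lay within 10%. Another 7 differed by over 1.5-fold (Ehmt2, Nup98, Prkca, Rb1, Syne4, Tor1aip1 and Tor1aip2), and the ratios of these may not hold for the whole gene.

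All 12 other inner nuclear membrane, LEM-domain and torsin genes were within 2-fold in the transcript table, with a median of 0.01. Nrm, the nurim gene, was at 32.9 FPKM in BM and 53.1 FPKM in FL (relative log2 ratio -0.69), and Tor1a, a torsin gene, at 25.8 and 37.0 FPKM (-0.52). Tor1b was at 21.7 FPKM in BM and 14.8 FPKM in FL (0.54), and Lemd2, a relative of Lemd3, at 32.9 and 27.4 FPKM (0.26). The 5 expressed LINC complex partners had a median of 0.36, and 1 was lower, the nesprin gene Syne4 at 0.498 FPKM in BM and 1.83 FPKM in FL, a call lost with a pseudocount of 1 FPKM. The nesprin genes Syne2 and Syne3, whose proteins bind SUN proteins, were at 6.74 and 16.1 FPKM in BM against 3.44 and 10.5 FPKM in FL (0.94 and 0.60), short of 2-fold.

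The genes listed for lamin tail processing were all within 2-fold in the transcript table, 6 of 6, with a median of -0.40. Fnta and Fntb, the farnesyltransferase subunit genes, were at 40.0 and 12.0 FPKM in BM against 50.0 and 22.6 FPKM in FL (-0.33 and -0.91). Zmpste24, which encodes the protease that cleaves prelamin A, was at 23.0 FPKM in BM and 20.6 FPKM in FL (0.15). Icmt, the gene of the methyltransferase that acts on the farnesylated end, was at 12.0 and 14.8 FPKM (-0.31).

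None of the 13 expressed nuclear pore genes was 2-fold apart; their median was -0.55. Nup93, a scaffold gene of the pore, was at 25.6 FPKM in BM and 50.5 FPKM in FL (-0.98). Ndc1 and Pom121, membrane anchor genes of the pore, were at 13.0 and 23.3 FPKM in BM against 22.6 and 40.4 FPKM in FL. Tpr, a basket gene, was at 50.7 and 43.5 FPKM (0.21).

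Of 12 genes of envelope breakdown and reassembly, 3 were lower and 2 higher in BM of the transcript table, with a median of -0.04. The lower ones were mitotic regulators: Plk1 at 14.0 FPKM in BM and 62.9 FPKM in FL, Ccnb1 at 22.2 and 74.1 FPKM, and Cdk1, which with cyclin B phosphorylates lamins at mitosis, at 75.6 and 156 FPKM. The kinase genes Prkca and Prkcb were at 8.08 and 2.97 FPKM in BM against 3.64 and 1.29 FPKM in FL, and both calls were lost with a pseudocount of 1 FPKM. Vps4b, of the ESCRT machinery that seals the new envelope, was at 52.4 FPKM in BM and 34.0 FPKM in FL (0.62). The part of cycling cells in the levels of Lmnb1 and Banf1 was not tested.

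The 11 peripheral heterochromatin partners had a median of -0.18, and 1 was higher, Rb1 at 14.7 FPKM in BM and 6.39 FPKM in FL. Rb1, 1 of the 7 genes that differ between gene-BM and transcript-FL, was at 0.685 FPKM in gene-BM. Cbx5 and Cbx3, genes of HP1 proteins, of which HP1 alpha binds Lbr, were at 55.1 and 204 FPKM in BM against 76.6 and 182 FPKM in FL (-0.48 and 0.16). The histone methyltransferase genes Suv39h1 and Suv39h2 were at 29.5 and 5.29 FPKM in BM against 50.8 and 9.33 FPKM in FL. The 9 genes of sterol synthesis around the step that Lbr can catalyse were all within 2-fold, with a median of 0.03. Tm7sf2, which encodes the other reductase of that step, was at 4.29 FPKM in BM and 5.97 FPKM in FL.

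**Figure D4:**
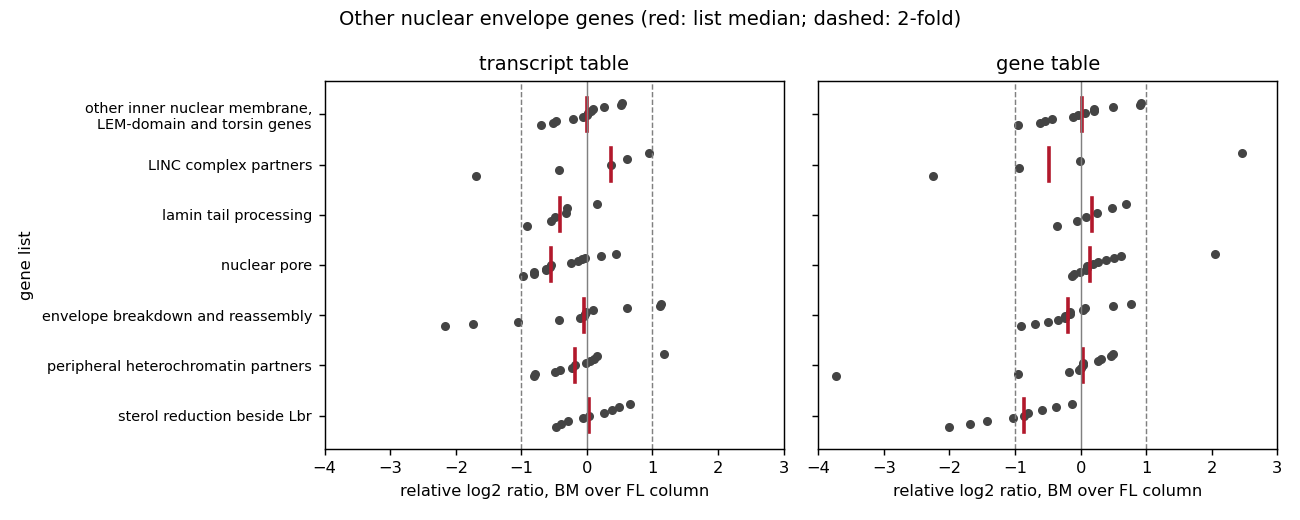
Relative log2 ratios (BM over FL column) of expressed genes in 7 lists of other nuclear envelope genes, in the transcript table (left) and the gene table (right), with the list median in red and 2-fold dashed. Within 2-fold lie 61 of 68 genes in the left panel and 58 of 66 in the right panel.

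Of the 66 expressed genes of these lists, 2 were at least 2-fold higher and 6 lower in BM of the gene table, beside 12.3% and 23.6% of all genes. The lower ones included 4 sterol genes, Msmo1 at 8.70 FPKM in BM and 29.8 FPKM in FL, Cyp51 at 8.32 and 23.0 FPKM, Sc5d at 6.80 and 15.6 FPKM, and Hsd17b7 at 2.97 and 5.23 FPKM. The sterol count was 3 under each alternative pseudocount or scaling. Hsd17b7 was just past the 2-fold limit, at -1.03 after the shift of 0.24 (log2). Its FPKM values themselves were less than 2-fold apart. The others were Syne2 at 3.58 FPKM in BM and 14.7 FPKM in FL, and Rb1. The higher ones were Syne3, at 10.9 FPKM in BM and 1.60 FPKM in FL, and the pore gene Nup210, at 62.9 FPKM in BM and 12.8 FPKM in FL. Hsd17b7 was named after its values were seen. The endothelial and stromal markers given above were lower in the same column, and their part in these differences was not tested.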

How the data were processed

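Per the labels' protocol, poly(A) RNA in fragments of about 300 nt was sequenced from both ends, with reads of 100 or 75 nt; the molecule field says genomic DNA. The authors deposited FPKM values per gene and per transcript. The submitters' processing notes name TopHat, Cufflinks, featureCounts, Subread, edgeR and the mm9 build without roles or versions. FPKM divides by length and library total, and Cufflinks-type transcript values share reads by a model.

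Identifiers were linked to GENCODE M21 (GRCm38) by name alone: 32838 of 37820 genes and 76512 of 87641 transcripts. No coordinates are given because the builds differ. Transcript FPKM were summed per gene. A gene was expressed at 1 FPKM or more in either column. Values under 0.001 FPKM were set to 0 in transcript levels, not in shares. The code for the ratio was checked on simulated data without noise, which says nothing of the spread between libraries.

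The members, the 7 envelope lists and the markers were chosen with earlier results of these data known. Named were all members, transcripts with 10% or more of their gene in either column, up to 3 highest and 3 lowest ratios per envelope list, 3 nearest profiles for Lmna and Lmnb1 and the 2 highest genes per marker list; not every gene the rule allows is printed, and 1 is not reported here. Lmna-201 and Lmnb1-202, below the share limit, the gene-table outliers of the envelope lists, and the markers Ly6a, Procr, Col1a2, Col3a1, Pdgfra, Pdgfrb and Ctsg were named after their values were seen. Alternatives were another pseudocount, scaling, filter and choice of transcripts. Python 3.11.15, numpy 2.4.6, pandas 2.3.3 and matplotlib 3.10.9 were used.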

Additional observations from a re-analysis of the deposited data

How the results depend on the processing

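The count of members at least 2-fold apart was the same under every alternative tried in both tables. The members' median in the transcript table was -0.34 with a pseudocount of 1 FPKM, -0.34 without centring, -0.29 with protein-coding transcripts only and -0.32 with the highest transcript only; in the gene table it was 0.12, 0.35 without centring and 0.27 with upper-quartile scaling. Of the other envelope genes, 1 was higher in the transcript table with a pseudocount of 1 FPKM, and 5 were higher without centring and 4 with upper-quartile scaling in the gene table. Lmna of the transcript table ranged from -2.09 to -1.68 and Sun2 from 0.32 (highest transcript only) to 0.71. Lemd3 turned to 0.10 with its highest transcript only. In the gene table Lmna, Sun1 and Lemd3 turned sign without centring, and Lmna and Sun1 also with upper-quartile scaling. No paired analysis was possible because the columns carry no replicate values, and for the same reason no replicate could be left out. Syne4 of the transcript table lost its lower call, and Prkca and Prkcb their higher calls, with a pseudocount of 1 FPKM. The 4 lower sterol genes of the gene table were 3 under each alternative pseudocount or scaling. The alternative filters and choices of transcripts were not run for the envelope lists. Depth is unknown, so the precision of the transcript shares is not known.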
